A study of Mus musculus with 8 samples.

Results

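The CD8 T cells described here were 266 single-cell barcodes from the left ventricle of the mouse heart, 158 from the sham library and 108 from the ischemia-reperfusion (IR) library. They were found among 20159 barcodes in all, 11620 sham and 8539 IR. Members were chosen by measured values, so the genes used to choose them are given as a description and support nothing. A barcode needed at least 200 genes and at most 30% of its UMIs (unique molecular identifiers, each counting 1 captured transcript) from mitochondrial genes. It was a member when it held at least 2 UMIs of Cd3d, Cd3e and Cd3g together, at least 1 UMI of Cd8a and Cd8b1 together and 0 UMIs of Cd4. It could hold at most 1 UMI of the B cell genes Cd79a, Cd79b and Ms4a1, under 0.1% of UMIs from the macrophage genes C1qa, C1qb and C1qc, under 1% from the neutrophil genes S100a8 and S100a9, and under 0.15% from the fibroblast genes Dcn and Col3a1.

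The study's methods describe adult male C57BL/6 mice, and the labels name no transgene or drug for these samples. IR mice had the left anterior descending coronary artery tied and then released, and sham mice had the operation without IR. Each of the 4 samples labelled per group pooled the left ventricles of 3 hearts, and the protocol takes cells 6 h after either operation, although the sham samples carry the label 0h. Each group reached the deposited data as 1 matrix in which no barcode is tied to a sample, so each group was 1 library without a replicate. The values below therefore compare these 2 libraries, no test between groups was possible, and every interval is an exact 95% interval that covers counting error only.

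CD8 T cells carry an antigen receptor that reads peptides on MHC class I and, once activated, kill the presenting cell with perforin and granzymes. Naive and central memory CD8 T cells circulate between blood and lymph nodes with homing receptors such as Ccr7, while effector memory cells hold chemokine and granule transcripts such as Ccl5 and Gzmb. Type I interferon binds a receptor made of Ifnar1 and Ifnar2 and, through JAK kinases and STAT factors, switches on antiviral genes in most cell types, T cells included.

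The T cell and CD8 markers were present in both libraries, as the way of choosing members required. Cd3d, a chain of the CD3 complex that carries the T cell receptor signal, had 773 UMIs in sham members and 544 in IR members, in 97.5% and 100% of cells. Cd8b1, the beta chain of the CD8 co-receptor (chromosome 6, 71322788 to 71337494 on mm10), had 610 and 388 UMIs, in 92.4% and 96.3% of cells. Cd8a, the alpha chain (chromosome 6, 71373427 to 71379173), was sparser, with 183 and 147 UMIs in 59.5% and 63.0% of cells. The median member held 9 CD3 UMIs in sham and 8 in IR, and 4 CD8 UMIs in each library. Just inside the limits lay 8 sham and 3 IR members with exactly 2 CD3 UMIs, and 23 sham and 19 IR members with exactly 1 CD8 UMI. Just outside lay 3 sham and 0 IR barcodes with 1 CD3 UMI, 6 sham and 2 IR barcodes with 1 Cd4 UMI, and 61 sham and 6 IR barcodes with 2 or more B cell UMIs. A further 206 sham and 108 IR barcodes met every other limit with 0 CD8 UMIs, so T cells whose Cd8a and Cd8b1 transcripts were not captured were left out.

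Members were deeper in IR. Their median was 4233.5 UMIs and 1248 genes in sham (1397 to 18411 UMIs) against 6783 UMIs and 1717 genes in IR (2093 to 24484 UMIs), and their median mitochondrial share was 3.96% against 6.86%. Summed over members, the libraries gave 761959 and 808639 UMIs, and levels are given as UMIs per 1000000 of these sums (CPM). The 2 libraries shared 30 barcodes, of which 0 were members.

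Some members also held RNA of other cell types. In 6 of 158 sham and 12 of 108 IR members, a marker list of macrophages, neutrophils, dendritic cells, fibroblasts, endothelial cells, erythroid cells or B cells took over 0.2% of UMIs, a limit chosen after the data were seen. These mixed barcodes made up 3.80% of sham members and 6.68% of their UMIs, and 11.1% of IR members and 19.8% of their UMIs. In IR 6 of them passed the limit for macrophage and 7 for neutrophil genes, and in sham 0 did for either. The summed macrophage list was 545 CPM in sham and 2172 in IR over all members, and 501 and 294 CPM once mixed barcodes were left out. The summed neutrophil list was 68.2 and 1490 CPM, and 43.6 and 683 CPM without them. Mixed barcodes were chosen by these same lists, so the lower sums without them follow in part from that choice. All 10 macrophage genes had UMIs in both libraries, while 3 of the 10 neutrophil genes (Cxcr2, Mmp8 and Il1r2) were at 0 in sham and 0 of 10 were at 0 in IR. Values without mixed barcodes (152 sham and 96 IR cells) are therefore given beside the gene lists and genes whose calls they move, and the part of such RNA in the other results was not tested.

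The share of CD8 T cells among barcodes depended on the limit on B cell genes. As chosen here, they were 1.39% of the 11377 sham barcodes within the gene and mitochondrial limits (1.18% to 1.62%) and 1.31% of the 8260 IR barcodes (1.07% to 1.58%), with overlapping intervals. Without a limit on B cell genes, an alternative chosen after seeing the data, the shares were 1.92% (1.68% to 2.19%) and 1.38% (1.14% to 1.66%), and the intervals did not overlap. Among T cells with CD8 or CD4 UMIs but not both, they were 158 of 217 in sham (72.8%, 66.4% to 78.6%) and 108 of 171 in IR (63.2%, 55.5% to 70.4%), so the intervals overlapped. Of all T cells within the limits, CD8 T cells were 36.8% in sham and 38.2% in IR, and CD4 T cells 13.8% and 22.3%. T cells with neither were 48.0% and 38.2%. Members were deeper in IR, and the part of transcript capture in the CD8 share was not tested. Against NK cells, defined by at least 2 UMIs of the NK receptor genes Ncr1 and Klrb1c and 0 CD3 UMIs, the share of CD8 T cells was 46.5% in sham (41.1% to 51.9%) and 72.0% in IR (64.1% to 79.0%), with 182 NK barcodes in sham and 42 in IR. Shares of barcodes depend on how every cell type survived dissociation, which was not tested.

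CD8 T cells held the interferon response genes at higher levels in sham than in IR. Across all genes, mitochondrial ones included, 4648 had at least 30 UMIs over both libraries, outside the genes used to choose members. Of these, 323 were higher in IR by at least 2-fold (6.95%) and 173 were lower by at least 2-fold (3.72%). Of the interferon response list of 25 genes, 23 reached 30 UMIs, 14 were lower in IR by at least 2-fold and 0 were higher. The median log2 ratio of IR to sham was -1.97 over the list and 0.03 over all genes compared. Summed over the list, CD8 T cells held 6461 CPM in sham and 2231 CPM in IR, a log2 ratio of -1.53 (-1.61 to -1.46). Without mixed barcodes 14 genes were again lower, against 4.07% over all genes. In that setting 3 of the 23 lay above 0, where 2010 of all 4082 genes did.

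Of these genes, 4 had in their promoters the letters GAAA, any 2 bases and GAAA again, the core of the interferon-stimulated response element, and they are shown with Gbp2, a gene of the list with a match that was not lower. Each is the reference sequence on GRCm38.p6 from RefSeq, from 250 bases before the transcription start to 50 bases after it, 5′ to 3′ on the gene's strand, with every match of this motif on either strand in capitals. The first is Isg15 (chr4:156200769-156201068, minus strand), then Bst2 (chr8:71537423-71537722, minus strand), Ifit1 (chr19:34640639-34640938, plus strand), Ifit3 (chr19:34583279-34583578, plus strand) and Gbp2 (chr3:142620413-142620712, plus strand).
Isg15: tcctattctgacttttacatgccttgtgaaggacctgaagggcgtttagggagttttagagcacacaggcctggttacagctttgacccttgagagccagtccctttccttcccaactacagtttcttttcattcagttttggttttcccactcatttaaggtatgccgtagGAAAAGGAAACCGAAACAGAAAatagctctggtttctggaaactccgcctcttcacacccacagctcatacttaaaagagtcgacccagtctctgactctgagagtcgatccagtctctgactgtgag
Bst2: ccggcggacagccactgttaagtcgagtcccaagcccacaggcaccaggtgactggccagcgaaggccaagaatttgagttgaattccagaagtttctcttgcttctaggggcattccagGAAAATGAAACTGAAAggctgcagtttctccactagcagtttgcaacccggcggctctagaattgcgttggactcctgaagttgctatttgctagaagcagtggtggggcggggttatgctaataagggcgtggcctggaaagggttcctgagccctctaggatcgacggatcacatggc
Ifit1: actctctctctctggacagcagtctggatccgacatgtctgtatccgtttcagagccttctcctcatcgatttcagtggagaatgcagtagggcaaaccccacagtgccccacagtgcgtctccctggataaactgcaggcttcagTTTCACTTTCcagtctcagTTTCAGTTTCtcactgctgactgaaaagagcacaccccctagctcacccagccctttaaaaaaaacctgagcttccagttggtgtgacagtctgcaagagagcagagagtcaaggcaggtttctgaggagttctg
Ifit3: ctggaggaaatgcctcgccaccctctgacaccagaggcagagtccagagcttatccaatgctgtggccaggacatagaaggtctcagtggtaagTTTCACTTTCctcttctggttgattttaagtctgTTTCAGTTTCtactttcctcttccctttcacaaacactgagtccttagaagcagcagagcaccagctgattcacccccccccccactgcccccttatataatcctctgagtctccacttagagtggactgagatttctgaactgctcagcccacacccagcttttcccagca
Gbp2: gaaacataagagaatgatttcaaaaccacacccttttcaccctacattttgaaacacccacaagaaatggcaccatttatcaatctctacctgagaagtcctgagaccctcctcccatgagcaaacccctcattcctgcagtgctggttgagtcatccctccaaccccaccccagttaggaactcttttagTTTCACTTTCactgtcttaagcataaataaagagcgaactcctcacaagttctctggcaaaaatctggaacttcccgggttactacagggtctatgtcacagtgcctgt
The matches of Isg15 and Bst2 lie on the gene's own strand, and those of Ifit1, Ifit3 and Gbp2 on the opposite strand, where the printed letters read TTTC. The 3 overlapping matches of Isg15 began 78, 72 and 66 bases before the start, and the 2 overlapping matches of Bst2 began 130 and 124 bases before it. The matches of Ifit1 began 104 and 85 bases before the start, those of Ifit3 at 156 and 122 bases, and the single match of Gbp2 at 59 bases. Of the 27025 genes with a promoter in the table, 1079 held the motif in at least 1 promoter (3.99%). Of the 17 interferon list genes with a promoter in the table, 9 did (52.9%). Of the 9 matched genes that were lower in IR, 4 held it (44.4%), and the others with it (Gbp2, Gbp7, Ifi203, Socs1 and Stat2) were not lower by 2-fold or had too few UMIs. A match is a description of these letters only.

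Bst2, Isg15, Ifit1 and Ifit3, the genes shown for a match and a lower level in IR, encode antiviral proteins. Bst2 encodes tetherin, which holds budding virus at the cell surface. It had 439 UMIs in sham members (576 CPM) and 39 in IR members (48.2 CPM), a log2 ratio of -3.58 (-4.09 to -3.10). Isg15, a ubiquitin-like protein joined to other proteins during the interferon response, had 220 and 17 UMIs (289 CPM in sham), a log2 ratio of -3.78 (-4.59 to -3.07). Ifit1 and Ifit3, which bind viral RNA and restrict its translation, had 96 and 103 UMIs in sham and 10 and 8 in IR. Their log2 ratios were -3.35 (-4.45 to -2.41) and -3.77 (-5.02 to -2.74), and 80.0% of the IR UMIs of Ifit1 lay in mixed barcodes. All 4 genes were thus lower in IR with intervals well away from 0, and Ifit3 may share reads with its near-identical neighbour Ifit3b.

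Regulators of the response were lower as well. Irf7, a transcription factor that amplifies type I interferon, had 120 sham and 17 IR UMIs, a log2 ratio of -2.91 (-3.73 to -2.17), and its promoter window of the same length held 0 matches of the motif. Usp18, which removes Isg15 from proteins and damps the receptor, had 37 and 2 UMIs, a log2 ratio of -4.30 (-7.39 to -2.34). The most abundant gene of the list, Ifi27l2a, an interferon-induced gene of a small membrane protein, had 1657 and 314 UMIs, a log2 ratio of -2.49 (-2.66 to -2.31). Rsad2 (viperin), an antiviral enzyme outside the list, had 42 and 2 UMIs, a log2 ratio of -4.48 (-7.57 to -2.54). Others of the list lower by at least 2-fold included Oasl2 (-2.86), Xaf1 (-2.61), Rtp4 (-2.57), Isg20 (-2.29), Slfn1 (-1.97) and Zbp1 (-1.01).

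Other members of the list differed little between the libraries. Ly6e, a surface protein induced by interferon, had 565 and 428 UMIs and a log2 ratio of -0.49, and Slfn2, a regulator of T cell quiescence, had 283 and 267 UMIs and -0.17. Irf1, which responds strongly to interferon gamma, was at 98.4 CPM in sham and 126 in IR (0.36, -0.09 to 0.81), and Gbp2, a guanylate-binding protein, was at 43.3 and 51.9 CPM (0.26, -0.43 to 0.97). Socs1, a feedback inhibitor of the pathway, was at 77.4 and 74.2 CPM (-0.06, -0.60 to 0.48). For these last 3 genes the interval of the log2 ratio included 0. The plot of each list gene's level in both libraries shows the spread within the list.

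**Figure D1:**
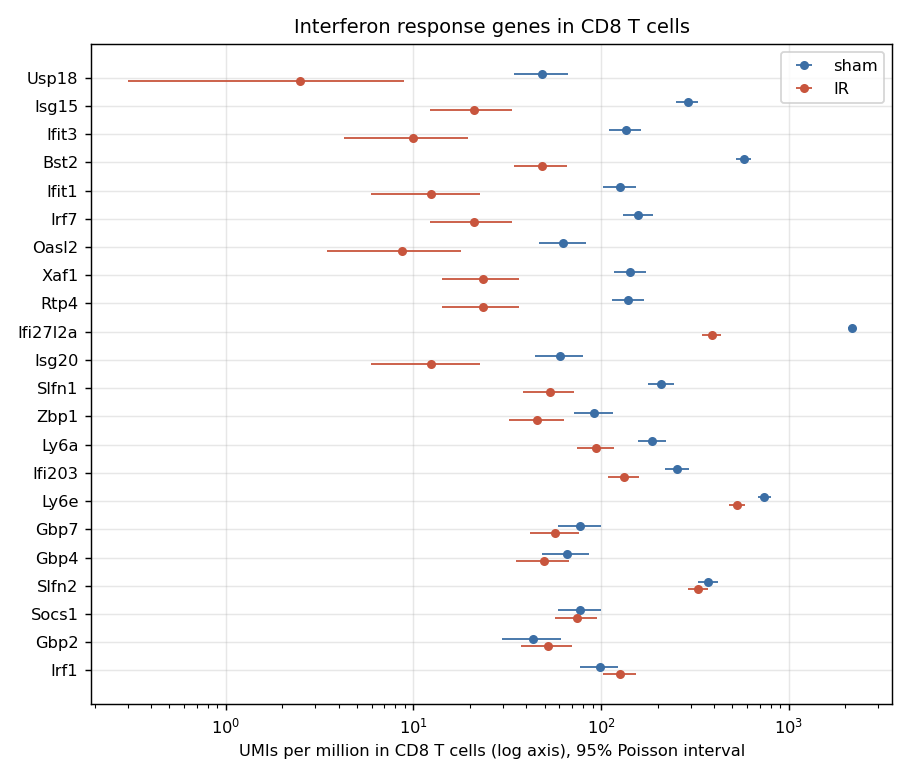
Levels of interferon response genes in CD8 T cells on a log axis of CPM, sham and IR, with exact 95% Poisson intervals that cover counting error only. Bst2 sits at 576 in sham and 48.2 in IR, whereas Irf1 (98.4 and 126) and Gbp2 (43.3 and 51.9) have overlapping intervals.

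The difference was spread over the cells and did not come from a few of them. Per cell, the interferon list took a median of 58.9 UMIs per 10000 in sham (3.64 to 212) and 19.5 in IR (5.39 to 75.7). Of the 108 IR cells, 3 lay above the sham median (2.78%), and of the 158 sham cells, 13 lay below the IR median (8.23%). The ranges overlapped, but most cells of the 2 libraries lay apart. Bst2 was detected in 79.7% of sham cells and 25.9% of IR cells, although IR cells were deeper. With every cell thinned at random to 1000 UMIs, Bst2 was in 34.2% of sham cells (26.8% to 42.1%) and 3.70% of IR cells (1.02% to 9.21%). Ifit1 or Ifit3 was in 15.8% (10.5% to 22.5%) and 0.926% (0.0234% to 5.05%) of the thinned cells.

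**Figure D2:**
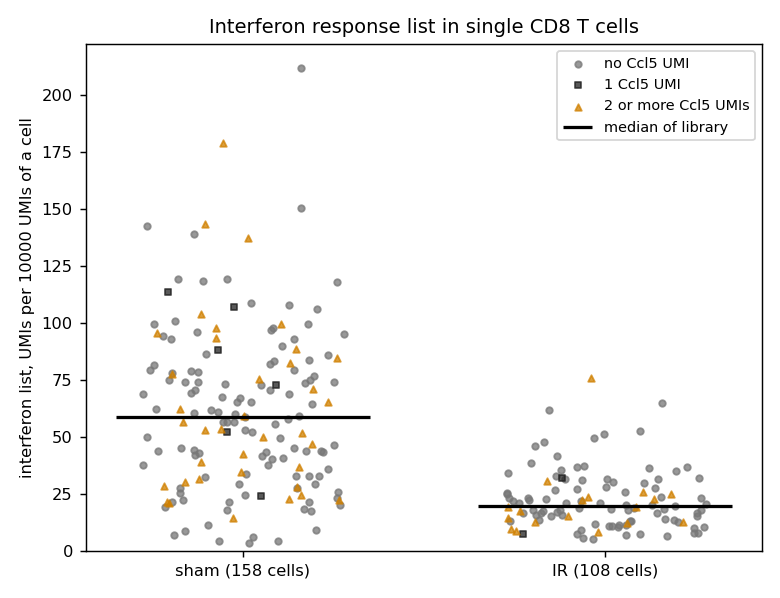
Interferon response list in each CD8 T cell, in UMIs per 10000 UMIs of the cell, for 158 sham and 108 IR cells, with the median of each library and symbols for cells with 0, 1 and at least 2 Ccl5 UMIs. The sham median is 58.9 and the IR median 19.5, and 3 IR cells lie above the sham median.

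The interferon list was also lower per cell in IR in other lymphocytes. Of the 14 list genes lower by at least 2-fold in CD8 T cells, 14 had an interval of the log2 ratio below 0 in CD4 T cells, 14 in B cells and 11 in NK cells. This criterion differs from the 2-fold limit, and the share of all genes that meet it in these cell types was not computed. The exceptions in NK cells were Isg20 (23.4 CPM in sham and 35.9 in IR, 0.62, -0.90 to 1.98), Slfn1 (21.9 and 35.9 CPM, 0.71, -0.82 to 2.09) and Oasl2 (-0.82, -2.54 to 0.55). The median per cell was 75.9 UMIs per 10000 in sham and 29.3 in IR for CD4 T cells, 30.7 and 13.6 for NK cells, 116 and 31.5 for B cells and 110 and 32.7 over all barcodes within the limits. CD8 T cells thus lay between NK cells and B cells in both libraries. Without mixed barcodes, the log2 ratio of Bst2 was -3.75 in CD8 T cells, -2.90 in CD4 T cells and -3.35 in B cells, and it was below 0 in NK cells too. Whether these ratios differ between cell types could not be tested with 1 library a group.

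**Figure D3:**
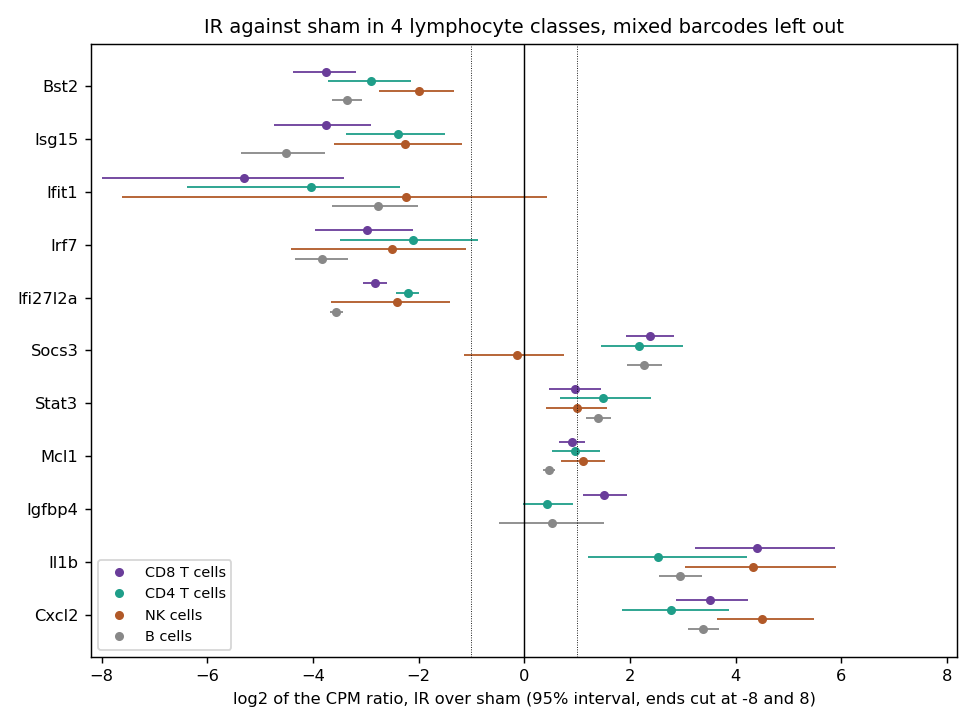
Log2 of the CPM ratio of IR to sham for 11 genes in CD8 T cells, CD4 T cells, NK cells and B cells, with mixed barcodes left out and exact 95% intervals that cover counting error only (ends cut at -8 and 8). Bst2 is below 0 in all 4 cell types, while Igfbp4 (not drawn for NK cells, at 0 in IR) is at 1.52 in CD8 T cells and 0.44 in CD4 T cells.

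MHC class I genes, which interferons also raise and through which CD8 T cells are themselves recognised, were moderately lower in IR. All 13 genes of the list had log2 ratios below 0, with a median of -0.52. Of all genes compared 52.2% lay above 0, and their median was 0.03. By at least 2-fold 3 were lower, against 3.72% over all genes. H2-T23, which encodes the nonclassical molecule Qa-1, had 415 and 177 UMIs, a log2 ratio of -1.32 (-1.58 to -1.06). The classical chains H2-K1 and H2-D1 were at -0.51 (-0.61 to -0.41) and -0.49 (-0.60 to -0.38), and B2m, the shared light chain, was at -0.29 (-0.40 to -0.19). Without mixed barcodes 1 gene, H2-T23, was lower by at least 2-fold, against 4.07% over all genes. In that setting 1 of 13 lay above 0, where 2010 of all 4082 genes did, and the median was -0.49. Reads of the class I genes may be shared between near-identical copies.

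Cytokine receptors and their signal transducers leaned the other way. Of 21 genes compared, 18 had log2 ratios above 0, with a median of 0.63, while 52.2% of all genes compared lay above 0. By at least 2-fold, 3 were higher in IR (Socs3, Stat3 and Ifnar1, against 6.95% over all genes) and 1 was lower. Without mixed barcodes 1 of 20, Socs3, was higher, against 4.53% over all genes. In that setting 16 of 20 lay above 0, where 2010 of all 4082 genes did. Socs3, the feedback inhibitor of receptors that signal through gp130 and Stat3, had 62 UMIs in sham (81.4 CPM) and 373 in IR (461 CPM), a log2 ratio of 2.50 (2.11 to 2.92). It was detected in 41 of 158 sham cells and 93 of 108 IR cells, and after thinning in 5.06% (2.21% to 9.73%) and 34.3% (25.4% to 44.0%). Leaving out mixed barcodes gave 2.37 (1.93 to 2.84) in CD8 T cells, 2.18 in CD4 T cells, 2.26 in B cells and -0.14 in NK cells. Socs3 was therefore higher in IR in CD8 T cells with and without those barcodes, and likewise in CD4 T cells and B cells.

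Stat3, which transmits interleukin 6 and related signals, had 64 and 143 UMIs, a log2 ratio of 1.07 (0.64 to 1.52) that became 0.96 without mixed barcodes. Ifnar1, a chain of the type I interferon receptor, had 34 and 75 UMIs, a log2 ratio of 1.06 (0.45 to 1.69), and without mixed barcodes 34 and 62 UMIs (0.37 to 1.65), which is under 2-fold. The interleukin 7 receptor Il7r was abundant in both, with 415 and 569 UMIs (0.37, 0.18 to 0.56), and the interferon gamma receptor chain Ifngr1 was at 298 and 451 CPM (0.60, 0.36 to 0.84). Il2rb, the chain of the interleukin 2 and 15 receptors found on memory cells, was the exception, with 78 and 31 UMIs and a log2 ratio of -1.42 (-2.07 to -0.80). It was also lower without mixed barcodes, at -1.19.

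Survival and stress genes differed gene by gene. Of 16 survival and apoptosis genes, 11 lay above 0, where 52.2% of all genes did. By at least 2-fold 2 were higher (Birc3 and Bcl2l11) and 0 were lower, against 6.95% and 3.72% over all genes. Without mixed barcodes 1 of 14, Birc3, was higher. Birc3, an inhibitor of apoptosis under NF-kappaB control, was at 1.35 (0.61 to 2.15) and Bcl2l11, which encodes the death-promoting protein Bim, at 1.15 (0.55 to 1.77). Without mixed barcodes they were at 1.17 (0.36 to 2.02) and 0.97 (0.33 to 1.63). Mcl1, which keeps T cells alive, had 254 and 530 UMIs, a log2 ratio of 0.98 (0.76 to 1.20), and Bcl2 had 376 and 324 UMIs (-0.30, -0.52 to -0.08). Nfkbia, the inhibitor of NF-kappaB, was at 1.34 over all members and at 0.50 (0.23 to 0.78) without mixed barcodes, and 1 IR barcode held 104 of its 550 UMIs. Zfp36, which destabilises cytokine mRNA, kept a log2 ratio above 1 in both settings (1.39 and 1.16).

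Heat shock genes split. Hspa1a, the inducible Hsp70, had 5 UMIs in sham and 59 in IR, a log2 ratio of 3.47 (2.17 to 5.15), but 1 IR cell held 19 of the 59. Hsp90ab1, the constitutive Hsp90, had 1643 and 860 UMIs, a log2 ratio of -1.02 (-1.14 to -0.90). Of 9 heat shock genes compared, 1 was higher and 1 was lower, against 6.95% and 3.72% over all genes. Of the 9, 1 lay above 0, where 52.2% of all genes did. The metallothionein Mt2, a zinc-binding protein raised by glucocorticoids and metals, was detected in 3 of 158 sham cells and 31 of 108 IR cells, with 3 and 53 UMIs and a log2 ratio of 4.06 (2.43 to 6.38). Of the 14 glucocorticoid response genes compared, 4 were higher by at least 2-fold over all members, where 6.95% of all genes were. Without mixed barcodes 1 of 12 was, Mt2 at 3.45, where 4.53% of all genes were. Tsc22d3 (GILZ), a further gene of that list, was at 529 and 433 CPM (-0.29, -0.50 to -0.08).

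**Figure D4:**
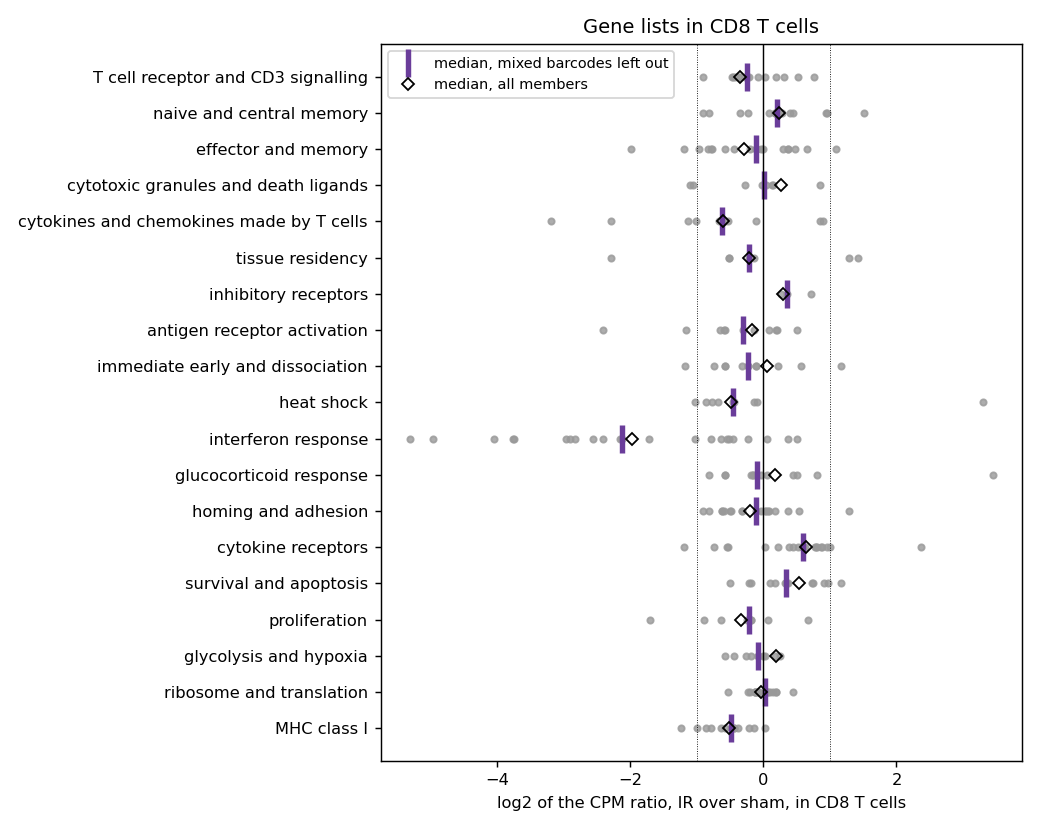
Log2 of the CPM ratio of IR to sham in CD8 T cells for each gene list, with 1 grey point per gene and a purple bar for the list's median, both without mixed barcodes, a diamond for the median over all members, and dotted lines at 2-fold. The interferon response list has its bar at -2.12 and its diamond at -1.97, and the cytokine receptor list has them at 0.59 and 0.63.

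By the lower bound of the log2 ratio, the 10 genes highest in IR were Spp1, Cxcl3, Clec4e, Il1b, Lilrb4a, Timp1, Cxcl2, Thbs1, Ptgs2 and Ccl2, several of which are known from activated macrophages and neutrophils. For each of them, between 63.2% (Cxcl3) and 89.2% (Spp1) of the IR UMIs lay in the 12 mixed barcodes. Il1b is itself in the neutrophil list used to choose those barcodes, so its share there follows in part from that choice. Il1b, the gene of interleukin 1 beta, had 23 UMIs in sham and 717 in IR over all members, of which 1 barcode held 233. Without mixed barcodes it had 6 and 116, a log2 ratio of 4.41 (3.24 to 5.88). Cxcl2, a chemokine that attracts neutrophils, had 22 and 607 UMIs over all members and 21 and 219 without mixed barcodes (3.51, 2.87 to 4.24). These transcripts were thus higher in IR also outside the mixed barcodes, but at lower levels.

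B cells, which are not their usual source, held these transcripts too. Cxcl2 was detected in 13.9% of sham and 87.0% of IR CD8 T cells, against 14.2% and 80.1% of B cells, whose median depths were lower, at 2305 and 3422 UMIs. Il1b was detected in 5.70% and 66.7% of CD8 T cells, against 9.14% and 56.3% of B cells. After thinning to 1000 UMIs, which left out 11 sham and 17 IR B cells, Cxcl2 was in 4.43% of sham and 31.5% of IR CD8 T cells (22.9% to 41.1% in IR), against 5.64% and 40.8% of B cells (37.3% to 44.5% in IR). Thinned Il1b was in 2.53% and 20.4% of CD8 T cells (13.2% to 29.2% in IR) and in 5.13% and 21.9% of B cells. At equal depth the shares in CD8 T cells thus lay below those of B cells, with overlapping intervals in IR, and they are not given here as expression by CD8 T cells. The part of free RNA in these shares was not tested. Leaving out the mixed barcodes lowered the number of genes higher in IR by at least 2-fold to 185 of 4082 (4.53%), and left 166 lower (4.07%). Several differences did not remain past 2-fold, among them the adhesion receptor Cd44 (1.86 over all members, 0.37 without), the transcription factor Zeb2 (2.17 and -0.72), the chemokine Ccl3 (2.29 and 0.85) and the glucose transporter Slc2a1 (1.07 and 0.37). Hbb-bs, the adult beta globin, was lower in IR at -3.09 over all members and at -0.13 without mixed barcodes. It is in the erythroid list used to choose those barcodes, so this change follows in part from that choice.

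Most CD8 T cells carried the transcripts of naive and central memory cells in both libraries. Ccr7, the receptor for lymph node chemokines, was detected in 79.7% of sham and 77.8% of IR cells, and Lef1, a transcription factor of quiescent T cells, in 77.8% and 85.2%. Ccr7 does not mark T cells alone, since with mixed barcodes left out 72.9% and 80.5% of B cells also held it, while Lef1 was in 3.79% and 4.99% of those B cells. Klf2, the factor that drives the egress receptor S1pr1, was in 98.7% and 98.1% of CD8 T cells, at 1811 and 1333 CPM. Ccr7 had 523 and 291 UMIs, a log2 ratio of -0.93 (-1.14 to -0.72). Lef1 and Tcf7, another factor of quiescent T cells, were at log2 ratios of -0.24 (-0.48 to -0.01) and 0.29 (0.03 to 0.55). The list of 14 genes had a median log2 ratio of 0.24. No gene of it was lower by at least 2-fold and 1 was higher, against 3.72% and 6.95% over all genes.

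That gene was Igfbp4, which encodes a secreted binding protein of insulin-like growth factors and is known in naive T cells. It had 78 UMIs in sham and 202 in IR, a log2 ratio of 1.29 (0.90 to 1.68), and 1.52 (1.10 to 1.95) without mixed barcodes. It was detected in 40 of 158 sham and 69 of 108 IR cells, and after thinning in 6.96% (3.53% to 12.1%) and 21.3% (14.0% to 30.2%). In B cells the log2 ratio was -0.18, and 0.52 without mixed barcodes. Among NK cells it had 2 UMIs in sham and 0 in IR.

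Receptor and signalling genes of the T cell receptor pathway differed little. Of 15 compared, 0 were higher and 1 was lower by at least 2-fold, against 6.95% and 3.72% over all genes. Their median log2 ratio was -0.34. The gene that was lower was Thy1, a surface glycoprotein of T cells, with 219 and 110 UMIs and a log2 ratio of -1.08 (-1.42 to -0.74) that became -0.91 without mixed barcodes. Among 11 genes that T cells switch on after antigen receptor signals, 1 was higher (Nfkbia) and 2 were lower (Nr4a2 and Irf8), against 6.95% and 3.72% over all genes, and without mixed barcodes 0 were higher and the same 2 were lower. Cd69, an early activation antigen of that list, was at 193 and 166 CPM (-0.22, -0.57 to 0.13). Of the inhibitory receptors of exhausted T cells, Pdcd1 had 0 UMIs in sham and 4 in IR and Lag3 had 1 in each. These levels lie at or near the 3 UMIs that a count of 0 allows, so a difference was not detectable at this depth.

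Effector genes ranged from widespread to sparse. Of 21 effector and memory genes compared, 2 were higher in IR by at least 2-fold (Cd44 and Zeb2) and 3 were lower (Ly6c2, Il2rb and Klrk1). Over all genes 6.95% were higher and 3.72% lower. Without mixed barcodes 1 of 20 was higher (Ctla2a) and 2 were lower (Ly6c2 and Il2rb), against 4.53% and 4.07% over all genes. Nkg7, a granule membrane protein, was detected in 78.5% of sham and 62.0% of IR cells, while Ccl5 and the granzymes were in fewer. Ccl5, a chemokine held ready as mRNA in memory CD8 T cells, was present with at least 2 UMIs in 37 of 158 sham cells (23.4%, 17.1% to 30.8%) and 18 of 108 IR cells (16.7%, 10.2% to 25.1%). After thinning to 1000 UMIs the shares were 16.5% and 13.9%, with overlapping intervals. In B cells the share was 1.44% in sham, and 0 of 749 in IR, where the upper bound is 0.491%. The median Ccl5-holding cell had 20 Ccl5 UMIs in sham and 40.5 in IR, well above the 2 UMIs required. Gzma and Gzmb, granzymes of cytotoxic granules, were each detected in 12 sham cells and 4 IR cells. Their log2 ratios of -1.27 (-1.56 to -0.99) and -1.38 (-1.93 to -0.85) therefore rest on those cells, and 1 IR cell held 75 of the 147 Gzma UMIs.

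Cytokine genes that CD8 T cells make on activation were sparse. Ifng, interferon gamma, had 30 UMIs in 12 sham cells and 3 UMIs in 2 IR cells, a log2 ratio of -3.41 (-5.76 to -1.72). Xcl1, a chemokine for cross-presenting dendritic cells, had 32 UMIs in 9 sham cells and 6 in 3 IR cells, a log2 ratio of -2.50 (-4.05 to -1.22). Ltb, the lymphotoxin beta chain of resting lymphocytes, was widespread and lower, with 381 and 194 UMIs (-1.06, -1.32 to -0.81). Of the 10 genes of this list compared, 4 were lower by at least 2-fold (Ifng, Xcl1, Ltb and Mif) and 1 was higher (Ccl3). Over all genes 3.72% were lower and 6.95% higher. Without mixed barcodes the same 4 were lower and 0 were higher, against 4.07% and 4.53% over all genes. Ly6c2, a surface protein of memory CD8 T cells that interferon also raises, had 706 and 194 UMIs, a log2 ratio of -1.95 (-2.19 to -1.72). Its reads may be shared with Ly6c1. The choice of members and of mixed barcodes set no limit on NK cell genes. A list of 9 NK cell genes summed to 469 CPM in sham and 618 in IR over all members. Without mixed barcodes it summed to 409 and 105 CPM. Klre1, an NK receptor, had 42 UMIs in 12 sham members and 6 in 4 IR members. The part of NK-type RNA in the values of Ifng, Xcl1 and the granzymes was not tested.

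Split by Ccl5, the members formed a larger group of 115 sham and 88 IR cells without Ccl5 and a smaller group of 37 and 18 cells with at least 2 Ccl5 UMIs. The 6 sham and 2 IR cells with exactly 1 were left aside. The split uses a measured gene, so the values are a description. The smaller group was deeper (median 5621 UMIs against 3876 in sham, and 7527.5 against 6425 in IR). Of 2203 genes compared in both libraries, 36 were higher in it by at least 2-fold in both (1.63%) and 18 were lower (0.817%), and without mixed barcodes 36 and 10 of 1890. Gzmb was in 12 of 37 sham cells and 4 of 18 IR cells of the smaller group and in none of the larger group, where 0 UMIs give a level at least 74.7-fold lower in sham and at least 58.0-fold lower in IR. Gzma was higher by 7.91 on the log2 scale in sham and 9.24 in IR.

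Other genes of the smaller group were spread over more of its cells. Serpinb9, an inhibitor that protects killer cells from granzyme B, was in 37.8% of its sham cells and 61.1% of its IR cells, against 1.74% and 3.41% of the larger group. Il2rb was in 67.6% and 77.8% against 18.3% and 7.95%. Hopx, a transcriptional cofactor of effector memory cells, was in 67.6% and 61.1% against 10.4% and 14.8%. Nkg7 was in nearly all cells of the smaller group (94.6% and 94.4%) but also in 73.0% and 54.5% of the larger, with log2 ratios of 1.64 and 2.29. The smaller group thus held the granule genes and the interleukin 15 receptor chain more often than the larger, as the plot of detection by Ccl5 class shows. Gzma and Gzmb were in a minority of its cells, and whether they lay in the same cells as Il2rb was not tested.

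**Figure D5:**
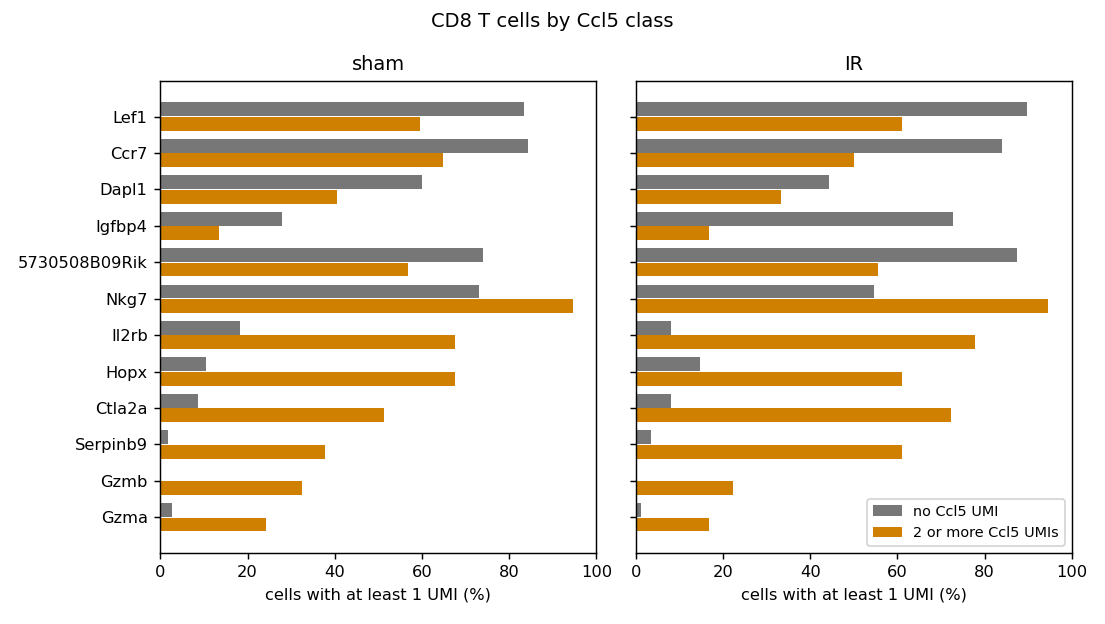
Percent of CD8 T cells with at least 1 UMI of each gene, in cells without Ccl5 (115 sham, 88 IR) and cells with at least 2 Ccl5 UMIs (37 sham, 18 IR). Serpinb9 is in 37.8% of the sham cells with Ccl5 and in 1.74% of those without, whereas Lef1 is in 59.5% and 83.5%.

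Several genes known from naive T cells were lower in the smaller group. Igfbp4 was lower by -1.69 on the log2 scale in sham (-2.88 to -0.67) and -2.71 in IR (-4.04 to -1.63), being in 72.7% of IR cells without Ccl5 and 16.7% of those with it. Lef1 was at -1.04 (-1.49 to -0.62) and -1.30 (-1.96 to -0.71). Dapl1, a gene of naive CD8 T cells, was at -1.11 and -1.21. Stmn1, a microtubule regulator of dividing cells, was higher by 2.67 in sham and 4.58 in IR, but with barcodes over 2500 genes left out its sham value was -0.61. In IR it was in 7 cells of the smaller group. That group includes the IR cell of 17399 UMIs, with 217 Ccl5 UMIs, that held all 16 IR UMIs of the cell cycle gene Mki67. How much of the IR value came from that cell is not given here. Hbb-bs and Hba-a1 also ranked among the lowest, and 1 sham barcode without Ccl5 held 993 of all 1043 Hbb-bs UMIs of sham members.

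The interferon difference was present in both groups. The median interferon list per cell was 58.9 UMIs per 10000 in sham and 20.2 in IR without Ccl5, and 53.2 and 18.3 with at least 2 Ccl5 UMIs. In cells without Ccl5 alone, an alternative chosen after seeing the data, Bst2 was at -3.33, Isg15 at -3.43, Socs3 at 2.94 and Igfbp4 at 1.24. These values hold no cell with Ccl5, so the different shares of Ccl5-holding cells do not enter them.

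CD4 T cells, the other main class of T cells, which includes helper and regulatory cells, were the closest comparison, with 59 sham and 63 IR barcodes. Of 3043 genes compared, 25 were higher in CD8 T cells by at least 2-fold in both libraries (0.822%) and 17 were lower (0.559%). Of the 17 effector and memory genes compared, 7 were higher in CD8 T cells (Ccl5, Nkg7, Ly6c2, Klrd1, Cst7, Ctsw and Ctla2a) and 0 were lower. Nkg7 was at 717 CPM in CD8 and 166 in CD4 T cells of sham, a log2 ratio of 2.11 (1.62 to 2.65), and at 441 and 120 in IR, 1.88 (1.41 to 2.37). Klrd1, the CD94 chain of inhibitory NK receptors, was in 61.4% of CD8 and 15.3% of CD4 T cells in sham and in 58.3% and 3.17% in IR. The unnamed gene 5730508B09Rik was at 2.85 and 2.56. Plac8, a cysteine-rich protein of leukocytes, was at 4.48 (3.11 to 6.37) in sham and 1.61 (1.19 to 2.05) in IR.

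Genes lower in CD8 than in CD4 T cells included some known from helper and regulatory cells. Ly6a (Sca-1) was at -1.86 in sham and -2.22 in IR, and it is the gene of the interferon list that differed between the classes. Cd5, which damps T cell receptor signals, was at -1.89 and -1.67, and Maf, a factor of helper and regulatory T cells, was at -1.78 (-2.71 to -0.85) and -5.30 (-6.78 to -4.13). Icos, a costimulator of helper cells, was at -1.21 and -2.55. Trib2, a pseudokinase, was at -1.80 and -2.42. The interferon list had a median of -0.24 in sham and -0.46 in IR against CD4 T cells, where the median over all genes was -0.10 and -0.11.

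NK cells share the killing machinery of CD8 T cells but lack the T cell receptor. Of 3489 genes compared, 105 were higher in CD8 T cells by at least 2-fold in both libraries (3.01%) and 306 were lower (8.77%). This split turned to 248 higher and 131 lower when mitochondrial, ribosomal protein, hemoglobin and S100a8 and S100a9 UMIs were left out of the totals, since these made up 48.4% of sham UMIs in CD8 T cells and 28.4% in NK cells, a shift of 0.47 in sham and 0.48 in IR. Ccr7 was at 686 and 360 CPM in CD8 T cells and had 0 UMIs in NK cells of either library, at least 157-fold higher in sham and at least 23.4-fold higher in IR. Il7r was at 5.37 and 3.93 and Tcf7 at 3.49 and 4.55. Bcl11b, the factor that commits cells to the T lineage, was at 5.38 in sham. Of the 14 naive and central memory genes, 10 were higher in CD8 T cells and 0 were lower.

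The granule genes lay far below their level in NK cells. Gzma was at 440 CPM in CD8 T cells and 12971 in NK cells of sham (log2 ratio -4.88, -5.04 to -4.73) and at -5.46 in IR. It was detected in 7.59% of CD8 T cells and 96.7% of NK cells in sham. Of 10 cytotoxic genes compared, 8 were lower in CD8 T cells, and of 22 effector and memory genes 17 were lower and 1 was higher. Over all genes 8.77% were lower and 3.01% higher. The counts of list genes against NK cells were not repeated with the other total. Irf8, a transcription factor of NK and myeloid cells, was at -4.23 in sham and -6.70 in IR, and Klre1, an NK receptor, at -4.43 and -6.36. Each of these ratios is far larger than the shift between totals.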

How the data were processed

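Single-cell RNA-seq (10× Chromium 3′ chemistry, Illumina NovaSeq6000) was made from dissociated mouse left ventricles. The authors deposited 1 matrix per group of whole-number UMI counts per gene and barcode, made with Cell Ranger on mm10 per the labels; the version in the matrix header is 3.1.0. Each matrix holds 27998 genes. T cell receptor constant genes were not analysed here, and some members of the gene lists are counted but not reported here by name or in the gene plots.

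Counts were summed over the CD8 T cells of each library and scaled to CPM. Because a group is 1 library, no test was run: CPM carries exact Poisson intervals, shares Clopper-Pearson intervals and log2 CPM ratios exact conditional intervals, all at 95%. A gene was compared at 30 or more UMIs and counted as higher or lower past 2-fold. Genes used to choose members were left out. Mitochondrial genes were left out of the rankings and of the comparisons within a library, but not of the counts of genes between libraries. No doublet caller was run. The members and gene lists were chosen with earlier results of these data known.

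The text names the 10 genes with the highest lower bound and the 10 with the lowest upper bound between libraries, the 8 extreme genes on each side of the other comparisons, the 4 most abundant members of each list and those past 2-fold, of which only some are described. Alternatives were other limits on members, totals, count minimums and thinning to 1000 UMIs. Leaving out mixed barcodes, lifting the limit on B cell genes and taking cells without Ccl5 only were chosen after seeing the data. CD4 T cells met the same limits with Cd4 UMIs and no CD8 UMIs. The code was tested on simulated data. Near-identical genes (Ifit3 and Ifit3b, class I, Ly6c, globin and Klra genes) are uncertain. Python 3.11.15, NumPy 2.4.6, pandas 2.3.3, SciPy 1.17.1 and matplotlib 3.10.9 were used. Gene coordinates are from GENCODE M21.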

Additional observations from a re-analysis of the deposited data

How the results depend on the processing

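No paired analysis was possible because the matrices carry no sample numbers and each group is 1 library. Of 1492 values recomputed under alternatives, 1305 counted as unmoved and 4 changed sign. To count as unmoved, a share had to stay in its main counting interval and a count within 1.5 times. A log2 ratio had to stay within a fixed distance of its main value, whatever its counting interval. The interferon list had between 11 and 16 genes lower in IR and 0 higher under every alternative run. With at most 2500 genes per barcode, CD8 T cells were 1.97% of IR barcodes, 178 genes were higher in IR, and Stmn1 by Ccl5 class in sham was at -0.61. Allowing no UMI of any excluded gene left 71 sham and 2 IR cells: CD8 T cells were 0.624% of sham and 0.0242% of IR barcodes and 33.3% of CD8 and CD4 T cells in IR, the IR share with Ccl5 was 100%, and 102 genes were higher and 266 lower in IR, 1 and 0 against CD4 T cells, 20 and 10 against NK cells, and 0 and 0 by Ccl5 class, with Stmn1 in sham at -0.82 and Plac8 against CD4 T cells in IR at -0.15. Without mixed barcodes 185 genes were higher in IR, 10 were lower by Ccl5 class, and Hba-a1 was at 0.57 in IR. With the other total, 248 genes were higher and 131 lower than in NK cells. With at least 1 UMI per gene, the higher and lower counts were 2653 and 1915 for IR, 775 and 518 against CD4 T cells, 711 and 1407 against NK cells, and 654 and 821 by Ccl5 class. With at least 100 UMIs they were 72 and 59, 11 and 3, 47 and 88, and 10 and 6. A Ccl5 class from 1 UMI gave 11 lower genes, and cells without Ccl5 only gave 111 genes lower in IR. Thinning to 1000 UMIs gave Ccl5 in 16.5% of sham cells. Without a limit on B cell genes CD8 T cells were 1.92% of sham barcodes. For IR, the minimums of 1 and 100 UMIs compared 12324 and 1638 genes in place of 4648, and the share called higher changed too. The cause of these and the other changes was not tested.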

Other observations

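Barcodes with T cell and B cell genes together were more frequent in sham. At least 2 UMIs of CD3 genes and at least 2 of the B cell genes Cd79a, Cd79b and Ms4a1 were found in 170 of 11377 sham barcodes (1.49%) and 22 of 8260 IR barcodes (0.266%), of which 79 and 6 also held Cd8a or Cd8b1. Their median depth was 8629.5 UMIs in sham and 9398 in IR, above the 4233.5 and 6783 of the CD8 T cells. None of them was a member.

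Cell cycle transcripts were rare among CD8 T cells. Mki67, a marker of dividing cells, was in 2 sham cells and 1 IR cell, and all 16 of its IR UMIs lay in that cell of 17399 UMIs. The same cell held 379 of the 1392 UMIs of the proliferation list in IR. Top2a, which untangles DNA during division, was in 8 sham and 7 IR cells.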
